A study of Homo sapiens with 8 samples.

Results

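YTHDF1, YTHDF2, YTHDF3, YTHDC1 and YTHDC2, the 5 human genes whose proteins carry a YTH domain, were examined in HCT116 cells after knockdown of one of them, YTHDF3. HCT116 is an established human colorectal cancer cell line. The genes were chosen by name and hold 40 of the 134605 transcripts and 5 of the 33711 genes in the expression table, with 2 transcripts for YTHDF1, 8 for YTHDF2, 16 for YTHDF3, 7 for YTHDC1 and 7 for YTHDC2. Cells received a negative control siRNA (NC) or siRNA against YTHDF3 (si-YTHDF3) with the jetPRIME kit, in the same parental line and with no other treatment named. The series held 8 libraries, of which the 4 input libraries, 2 per condition, have expression values and the others are m6A-precipitated RNA. The study lists a pair of siRNAs under the same names as the si-YTHDF3 libraries, so these libraries may differ in siRNA. Whether the libraries of a group came from separate cultures is not stated in the labels, so the p-values measure only the spread between these samples, which may be technical. HCT116 cells are a single line, and fewer cells expressing a transcript cannot be told apart from less of it per cell in such bulk RNA.

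N6-methyladenosine (m6A) is a methyl mark placed on messenger and long noncoding RNA by a nuclear writer complex and removed by demethylases. The YTH domain folds into a pocket lined by aromatic residues that holds the methylated base, and proteins with this domain are called m6A readers. YTHDF1, YTHDF2 and YTHDF3 are close cytoplasmic paralogs. YTHDF2 is known for recruiting the CCR4-NOT deadenylase to methylated RNA, YTHDF1 for work on its translation, and YTHDF3 for acting with both, while later work described the 3 proteins as largely redundant in RNA decay. YTHDC1 is the nuclear member, linked to splicing and export, and YTHDC2 is a large protein with an RNA helicase core, studied most in germ cells of mice.

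Values are FPKM, a fragment number corrected for transcript length and for library size, summed over the transcripts of a gene. Since FPKM are given per length, levels of different genes may be set side by side. The FPKM of a library summed to between 371121 and 383303, and 14357 to 14483 genes reached 1 FPKM, but the read depth behind them is unknown. Markers of the epithelial line were present, with 6 of 8 at a mean of 1 FPKM or more and KRT8 at up to 837 FPKM, but VIL1 and LGR5 at or below 0.0117 and 0.0460 FPKM, and their summed level was 1619 to 1795 FPKM in NC and 1688 to 1898 FPKM in si-YTHDF3 libraries. The leukocyte and endothelial markers in the table stayed at or below 0.119 and 0.253 FPKM. Fibroblast markers summed to 12.04 to 15.8 FPKM in NC and 11.9 to 13.7 FPKM in si-YTHDF3 libraries, nearly all of it COL1A1, and their part in the results was not tested.

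The targeted gene was measured first. YTHDF3 (ENSG00000185728, chromosome 8, 63168553 to 63212786, plus strand, GRCh38) stood at 25.9 FPKM in NC replicate 1 and 11.96 FPKM in NC replicate 2, against 2.53 FPKM in si-YTHDF3 replicate 1 and 3.25 FPKM in si-YTHDF3 replicate 2. Both knockdown libraries were below both control libraries, and the mean after knockdown was 15.3% of the NC mean. The log2 fold change on the log2(FPKM + 1) scale, which understates changes of low values, was -2.27 (SE 0.350, 95% interval -3.14 to -1.40, 2 libraries per group). Among the 14457 genes with a mean of at least 1 FPKM, only 1 other gene lay lower, since YTHDF3 had rank 2 from the bottom. The unadjusted p was 0.000844, and the limma p adjusted over all genes (Benjamini-Hochberg) was 0.135, so the difference did not pass the threshold of 0.05. Across the 15 alternative settings the log2 fold change was negative each time, from -2.80 to -1.07. Changing the filter, the limma mean trend or the blocking by replicate cannot move it in this balanced design, so those settings bear on the p-value alone. With all 4 libraries kept, the limma adjusted p ran from 0.00031 to 0.429. The control libraries differed by 1.05 on the log2 scale, a gap that 1.501% of genes exceeded, whereas the si-YTHDF3 libraries differed by 0.27. Without NC replicate 1 the log2 fold change was -1.74 and without NC replicate 2 it was -2.80. Those fits keep 1 control library, so no p-value is read from them. Their spread comes from the si-YTHDF3 libraries and from limma's pooling over all genes.

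The other family members showed smaller differences, and of the 5 genes 0 passed the adjusted limma threshold. Over all genes tested, 0% passed as lower and 0.0277% as higher. At an unadjusted p under 0.05, YTHDF3 and YTHDC2 were lower, against 6.53% of all genes, and 0 members were higher, against 8.29%. The groups did not overlap for YTHDF3 and YTHDC2, which were lower after knockdown as were 23.7% of genes, and for YTHDF1, which was higher as were 25.3% of genes.

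**Figure D1:**
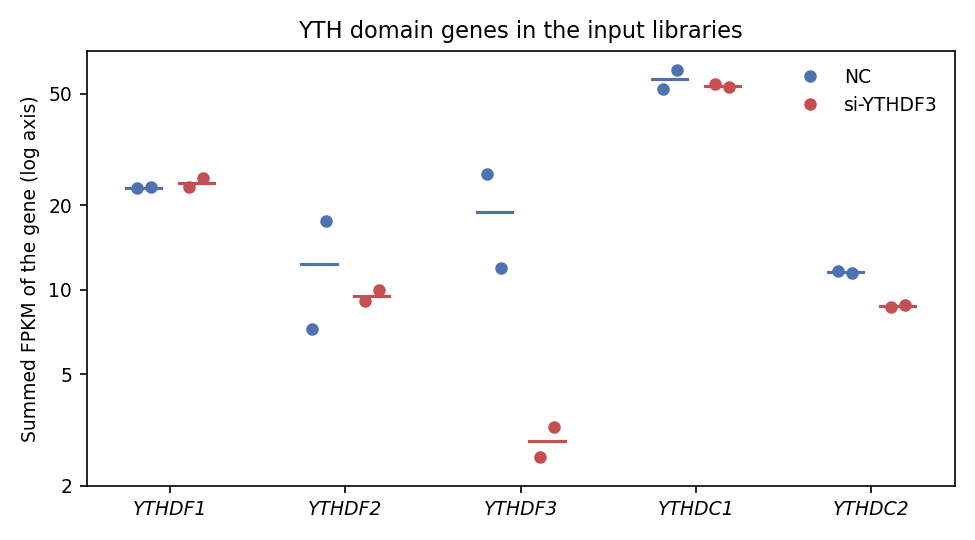
Summed FPKM of each YTH domain gene (log axis) in the 4 input libraries, with NC in blue and si-YTHDF3 in red; each point is 1 library and each line the mean of 2. The mean of YTHDF3 was 18.9 FPKM with NC siRNA and 2.89 FPKM with YTHDF3 siRNA, a difference that did not pass the adjusted test, and the NC libraries of YTHDF2 and YTHDF3 lie far apart.

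YTHDF1 (ENSG00000149658, chromosome 20, 63195429 to 63216234, minus strand) was the steadiest of the cytoplasmic readers. Its level was 23.1 FPKM in NC replicate 1, 23.2 FPKM in NC replicate 2, 23.2 FPKM in si-YTHDF3 replicate 1 and 25.02 FPKM in si-YTHDF3 replicate 2. Although the groups were just apart, the log2 fold change was 0.055 (SE 0.125), the fold 1.04 with a 95% interval of 0.837 to 1.29, and the limma adjusted p 0.859. A single protein-coding transcript, ENST00000370339, carried 98.03% to 98.9% of the YTHDF1 value in every library. Taken alone it had 22.7 and 22.96 FPKM in the controls and 22.8 and 24.6 FPKM after knockdown, which overlapped, as did the YTHDF1 sums when transcripts were weighted by length.

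YTHDF2 (ENSG00000198492, chromosome 1, 28736621 to 28769775, plus strand) gave no stable direction. It had 7.23 FPKM in NC replicate 1, 17.6 FPKM in NC replicate 2, 9.10 FPKM in si-YTHDF3 replicate 1 and 9.95 FPKM in si-YTHDF3 replicate 2. Both knockdown values thus lay between the control values, and the log2 fold change of -0.23 (SE 0.375, 95% interval -1.17 to 0.70, limma adjusted p = 0.793) had an interval on both sides of 0. Without NC replicate 1 it was -0.82 and without NC replicate 2 it turned to 0.35. With protein-coding transcripts alone it turned to 0.091. The gap between its NC libraries, 1.18 on the log2 scale, was exceeded by 1.12% of genes.

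YTHDC1, the nuclear reader (ENSG00000083896, chromosome 4, 68310387 to 68350089, minus strand) was the most abundant family member in all 4 libraries. It had 52.02 and 60.8 FPKM with NC siRNA against 54.2 and 52.7 FPKM with YTHDF3 siRNA, and the groups overlapped. The log2 fold change was -0.073 (SE 0.134, 95% interval -0.41 to 0.26, limma adjusted p = 0.822), and it was 0.038 without NC replicate 2.

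YTHDC2 (ENSG00000047188, chromosome 5, 113513683 to 113595285, plus strand) had control values of 11.7 and 11.5 FPKM and knockdown values of 8.67 and 8.82 FPKM. Replicates of a group were close in these plain sums, the groups were apart, and the knockdown mean was 75.4% of the NC mean. The log2 fold change was -0.37 (SE 0.127, 95% interval -0.69 to -0.053). The unadjusted p was 0.0292 and the limma adjusted p 0.298, with a range of 0.235 to 0.861 over 15 alternatives. When protein-coding transcripts alone were summed, the log2 fold change was -0.051. Weighted by length, YTHDC2 had 12.9 and 9.85 with NC siRNA against 9.39 and 8.56 with YTHDF3 siRNA on the FPKM scale. The groups stayed apart, but the NC libraries were no longer close. The log2 fold change was then -0.30 (SE 0.158, limma unadjusted p = 0.117).

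**Figure D2:**
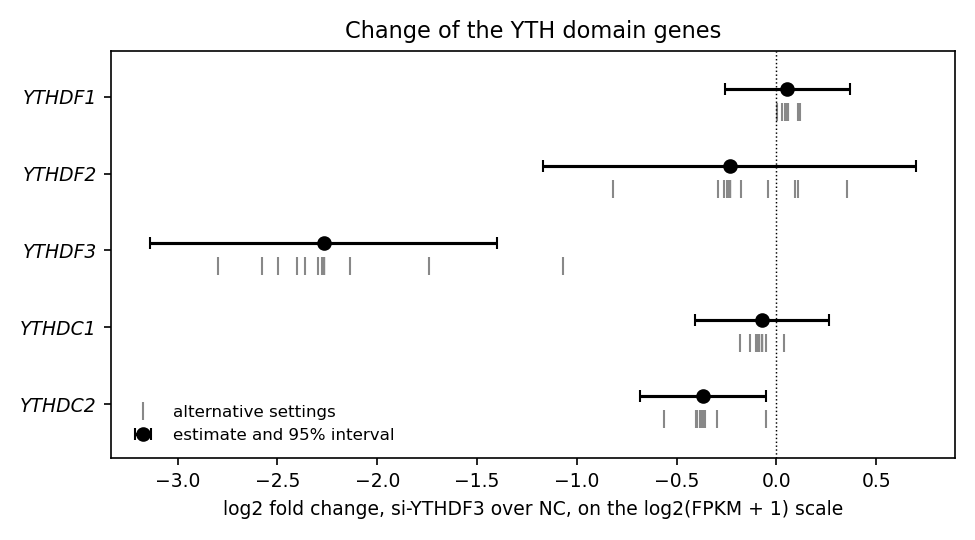
Log2 fold change of each YTH domain gene, si-YTHDF3 over NC; points are the estimates, horizontal bars their 95% intervals from limma, and grey ticks the 15 alternative settings. The interval of YTHDF3 runs from -3.14 to -1.40, and the ticks of YTHDF2 lie on both sides of 0.

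The order of the 5 genes by FPKM changed with the library only below the top. YTHDC1 came first in every library, and YTHDF1 came next except in NC replicate 1, where YTHDF3 was above it. YTHDF3 ranked 2 in NC replicate 1 and 4 in NC replicate 2, but 5 in both si-YTHDF3 libraries. In the NC group the means of YTHDF1 (23.2 ± 0.0532 FPKM), YTHDF3 (18.9 ± 9.85), YTHDF2 (12.4 ± 7.32) and YTHDC2 (11.6 ± 0.0964; SD, n = 2) followed YTHDC1 (56.4 ± 6.24). The ranges of YTHDF3 and YTHDF2 over the control libraries overlapped, that of YTHDF3 enclosed YTHDF1, and that of YTHDF2 enclosed YTHDC2, so these neighbours could not be ordered. After knockdown the order was YTHDC1 (53.4 ± 1.02 FPKM), YTHDF1 (24.1 ± 1.25), YTHDF2 (9.52 ± 0.603), YTHDC2 (8.74 ± 0.108) and YTHDF3 (2.89 ± 0.508, SD, n = 2), with no overlap between neighbours. The order of YTHDF2 and YTHDC2 depended on the way of summing. With protein-coding transcripts alone YTHDC2 had 7.22 and 7.34 FPKM after knockdown, above YTHDF2 at 6.40 and 6.64 FPKM, whereas sums weighted by length kept YTHDF2 above.

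Whether the change of YTHDF3 differed from that of its paralogs was examined within libraries. The log2 level of YTHDF3 minus the mean log2 level of YTHDF1 and YTHDF2 was 0.93 in NC replicate 1 and -0.71 in NC replicate 2, and -2.15 and -1.99 in the si-YTHDF3 libraries. The group means differed by -2.18, si-YTHDF3 minus NC, with both si-YTHDF3 libraries below both NC libraries, and the exact permutation p (two-sided) was 0.333. This difference was -1.36 without NC replicate 1, -3.00 without NC replicate 2 and -1.18 without the transcript ENST00000621413. With 2 libraries per group 0.333 is the smallest p such a test can give, so the design cannot reach significance by it. YTHDF1 was 0.893-fold and 1.94-fold the level of YTHDF3 in the NC libraries and 9.18-fold and 7.70-fold in the si-YTHDF3 libraries.

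The summed FPKM of the cytoplasmic paralogs was 56.3 and 52.8 in the NC libraries and 34.9 and 38.2 in the si-YTHDF3 libraries. YTHDF3 made up 46.03% and 22.7% of that sum in NC and 7.26% and 8.50% after knockdown. The mean share differed by -26.5 percentage points, si-YTHDF3 minus NC (exact permutation p = 0.333, two-sided), and by -38.1 to -14.8 points with single libraries left out. YTHDF1 filled 41.1% and 44.0% of the sum in NC and 66.7% and 65.5% after knockdown, with the FPKM given above. YTHDF1 and YTHDF2 together had 30.4 and 40.8 FPKM with NC siRNA against 32.3 and 34.97 FPKM with YTHDF3 siRNA, with the knockdown values inside the range of the controls.

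**Figure D3:**
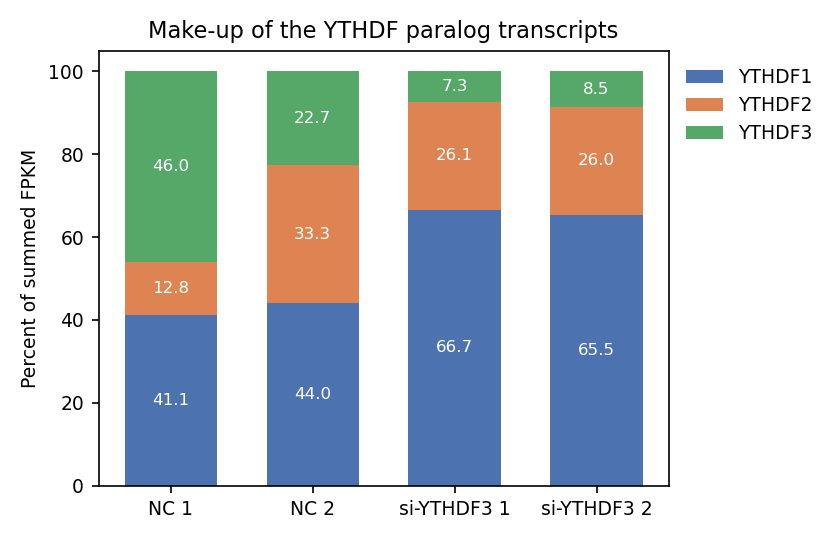
Percent of the summed FPKM of the YTHDF paralogs that came from YTHDF1, YTHDF2 and YTHDF3, one bar per input library. The YTHDF3 segment is 46.03% and 22.7% in the NC libraries and 7.26% and 8.50% in the si-YTHDF3 libraries.

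Of the 40 transcripts, 14 had a mean of at least 1 FPKM and could be tested, and 26 lay below it, at most 2.72 FPKM in any library. Among the 14 tested, 0 passed the adjusted limma threshold, as did 0% of all 38284 transcripts tested, and 1 was under 0.05 unadjusted. Over all 40 transcripts the groups were apart with lower values after knockdown for 8, of which 5 belonged to YTHDF3, and with higher values for 2. Among all transcripts listed, 15.4% were apart and lower and 17.1% apart and higher. Of the 14 tested, 3 were apart and lower and 0 apart and higher, against 19.1% and 20.6% of all transcripts tested. Of these 3, ENST00000621413 and ENST00000506333 lay below 1 FPKM in both knockdown libraries. They entered the tested set only through NC values, so the count is a description only.

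By the deposited estimates, different transcripts carried the YTHDF3 value in the control libraries. ENST00000621413, a protein-coding transcript of 2370 bases with 6 exons, had 21.7 FPKM in NC replicate 1 and 0.320 FPKM in NC replicate 2, and was listed at 0 and at 0.0297 FPKM in the si-YTHDF3 libraries. It made up 83.8% of YTHDF3 in NC replicate 1 and 2.67% in NC replicate 2. ENST00000517371, a protein-coding transcript of 3122 bases with 4 exons, showed the reverse, with 0.242 FPKM in NC replicate 1, 6.76 FPKM in NC replicate 2, and 0.139 and 1.49 FPKM in the knockdown libraries. Both were tested, both reached the filter through a single control library, and neither passed (limma adjusted p = 0.780 and 0.841). These models overlap along the gene, from 63168661 to 63209955 and from 63168654 to 63212445. How shared reads were divided between them was not tested.

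Leaving ENST00000621413 out of the sum, a step chosen after its values were seen, YTHDF3 had control values of 4.19 and 11.6 FPKM and knockdown values of 2.53 and 3.22 FPKM. The groups stayed apart, and the knockdown mean was then 36.3% of the NC mean with a log2 fold change of -1.07 (limma adjusted p = 0.326). When each transcript was weighted by its length, which follows the number of fragments more closely, YTHDF3 had 23.6 and 14.3 in NC and 2.10 and 3.61 in si-YTHDF3 libraries on the FPKM scale, 15.03% of the NC mean. The low value after knockdown was thus present with either way of summing. Leaving out a transcript that was high in NC replicate 1 alone must shrink the difference, so 36.3% is not a second estimate of its size. With length weighting, which keeps ENST00000621413, the percentage was close to the 15.3% of the plain sum.

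The 16 YTHDF3 transcripts were grouped, after their values had been seen, by the distance of their last base from the last base of the gene. The 4 transcripts that ended 2619 to 2831 bases before it, ENST00000621413 among them, had 22.8 and 2.43 FPKM with NC siRNA against 0.506 and 0.549 FPKM with YTHDF3 siRNA. The 5 transcripts with the longest 3′ ends, within 341 bases of it, had control values of 1.35 and 8.72 FPKM and knockdown values of 0.727 and 2.10 FPKM, and here the groups overlapped. The 7 transcripts that covered only the 5′ part of the gene, ending at least 23744 bases before its last base, had 1.78 and 0.814 FPKM with NC siRNA against 1.30 and 0.605 FPKM with YTHDF3 siRNA. These short models overlapped between groups and made up 6.86% and 6.80% of YTHDF3 in NC but 51.3% and 18.6% after knockdown.

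Among the YTHDF3 transcripts of low level, ENST00000539294, a protein-coding transcript of 5163 bases, had control values of 0.740 and 1.38 FPKM and knockdown values of 0.325 and 0.383 FPKM. ENST00000621890, at 0.229 and 0.521 FPKM with NC siRNA, was listed at 0 after knockdown in both libraries. The transcript ENST00000612880 went the other way, at 0.000362 and 0.0930 FPKM with NC siRNA against 0.459 and 0.250 FPKM with YTHDF3 siRNA. All of these lay below 1 FPKM on average and were not tested.

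**Figure D4:**
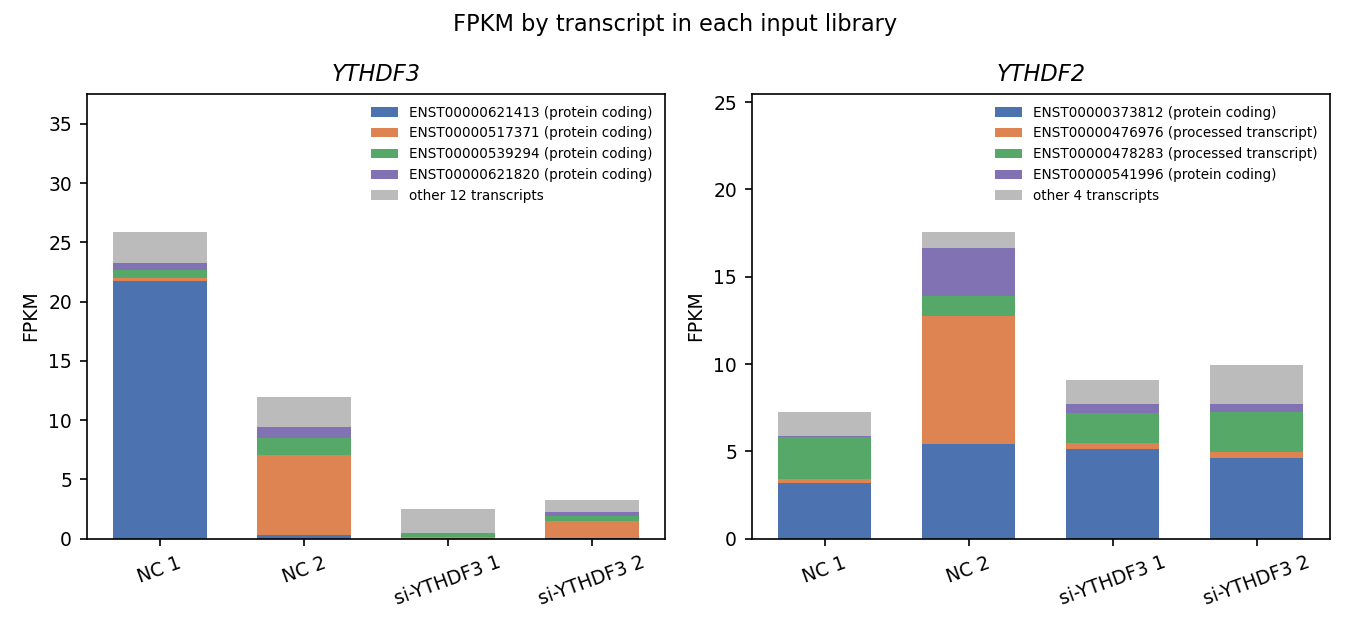
FPKM of YTHDF3 (left) and YTHDF2 (right) in each input library, stacked by transcript; the 4 transcripts with the highest mean are coloured and the rest are grey. ENST00000621413 fills most of the YTHDF3 bar of NC replicate 1 (21.7 FPKM) and ENST00000476976 much of the YTHDF2 bar of NC replicate 2 (7.33 FPKM).

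For YTHDF2 the control libraries differed mainly by transcripts that were higher in NC replicate 2. ENST00000476976, a processed transcript of 657 bases with no annotated protein, had 0.259 FPKM in NC replicate 1, 7.33 FPKM in NC replicate 2, and 0.306 and 0.318 FPKM in the knockdown libraries. It made up 41.7% of YTHDF2 in NC replicate 2 and 3.19% to 3.59% in the other libraries. Without it, again a step chosen after seeing the values, YTHDF2 had control values of 6.97 and 10.3 FPKM and knockdown values of 8.79 and 9.63 FPKM, with a log2 fold change of 0.11. The main protein-coding transcript, ENST00000373812, had 3.18 and 5.40 FPKM with NC siRNA against 5.16 and 4.63 FPKM with YTHDF3 siRNA, so that the groups overlapped (limma log2 fold change 0.19, SE 0.286). The remaining tested transcript, the noncoding ENST00000478283, had 2.36 and 1.19 FPKM in the controls, its lower value being in NC replicate 2, and 1.74 and 2.29 FPKM after knockdown.

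For YTHDC1, 5 of 7 transcripts were tested. ENST00000579690, a protein-coding transcript with 17 exons, had control values of 25.9 and 27.8 FPKM and knockdown values of 24.5 and 22.8 FPKM (log2 fold change -0.18, limma adjusted p = 0.781). ENST00000506175, annotated as retaining an intron, had 17.1 and 20.8 FPKM with NC siRNA against 18.9 and 18.3 FPKM with YTHDF3 siRNA. The other tested transcripts were all protein-coding and overlapped between groups. ENST00000355665 had 3.57 and 4.72 FPKM in the controls and 4.67 and 3.62 FPKM after knockdown. ENST00000344157, the longest at 6232 bases, ran from 3.18 to 4.17 FPKM over the 4 libraries, and ENST00000507529 from 1.59 to 4.00 FPKM. The retained-intron model ENST00000506175, of 581 bases, gave 32.96% to 34.9% of the YTHDC1 value in every library. A like part of the summed FPKM in both groups was thus assigned to a model not annotated as coding. That model lies within the span of coding YTHDC1 transcripts, and the origin of its reads was not tested.

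YTHDC2 was divided by annotation in the same way, after its values had been seen and so with no test. Its protein-coding transcripts summed to 7.58 and 7.58 FPKM with NC siRNA against 7.22 and 7.34 FPKM with YTHDF3 siRNA, a knockdown mean at 96.05% of the NC mean. Its retained-intron transcripts summed to 3.87 and 3.68 FPKM with NC siRNA against 1.22 and 1.22 FPKM with YTHDF3 siRNA, or 32.3% of the NC mean. Their share of YTHDC2 was 33.2% and 31.9% in NC and 14.1% and 13.8% after knockdown. Both libraries of each group were close in these shares, and most of the lower plain FPKM sum of YTHDC2 lay in models not annotated as coding. The coding transcripts ENST00000161863 and ENST00000515883 differed in opposite directions between the NC libraries, so their sum was steadier than either. The models differ widely in length, and no sum by annotation was weighted by length. Where the lower number of fragments lay was therefore not tested.

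The retained-intron transcripts of YTHDC2 did not behave alike in NC. ENST00000506333, of 784 bases, had control values of 1.97 and 3.01 FPKM and knockdown values of 0.751 and 0.718 FPKM, with a log2 fold change of -0.99 (SE 0.260, unadjusted p = 0.0232, limma adjusted p = 0.567). It was the family's 1 transcript under 0.05 unadjusted, where 3.22% of all transcripts tested were lower and 3.98% higher, but it reached the filter of 1 FPKM only through the NC libraries, so nothing is read from that p. ENST00000512600, of 6708 bases, had 1.87 and 0.540 FPKM with NC siRNA against 0.416 and 0.458 FPKM with YTHDF3 siRNA. The full-length coding transcript ENST00000161863, with 30 exons, had control values of 7.16 and 5.45 FPKM and knockdown values of 5.84 and 5.18 FPKM, and its groups overlapped. The shorter coding transcript ENST00000515883 had 0.420 FPKM in NC replicate 1 and 2.11 FPKM in NC replicate 2, on either side of 1.38 and 1.17 FPKM after knockdown.

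**Figure D5:**
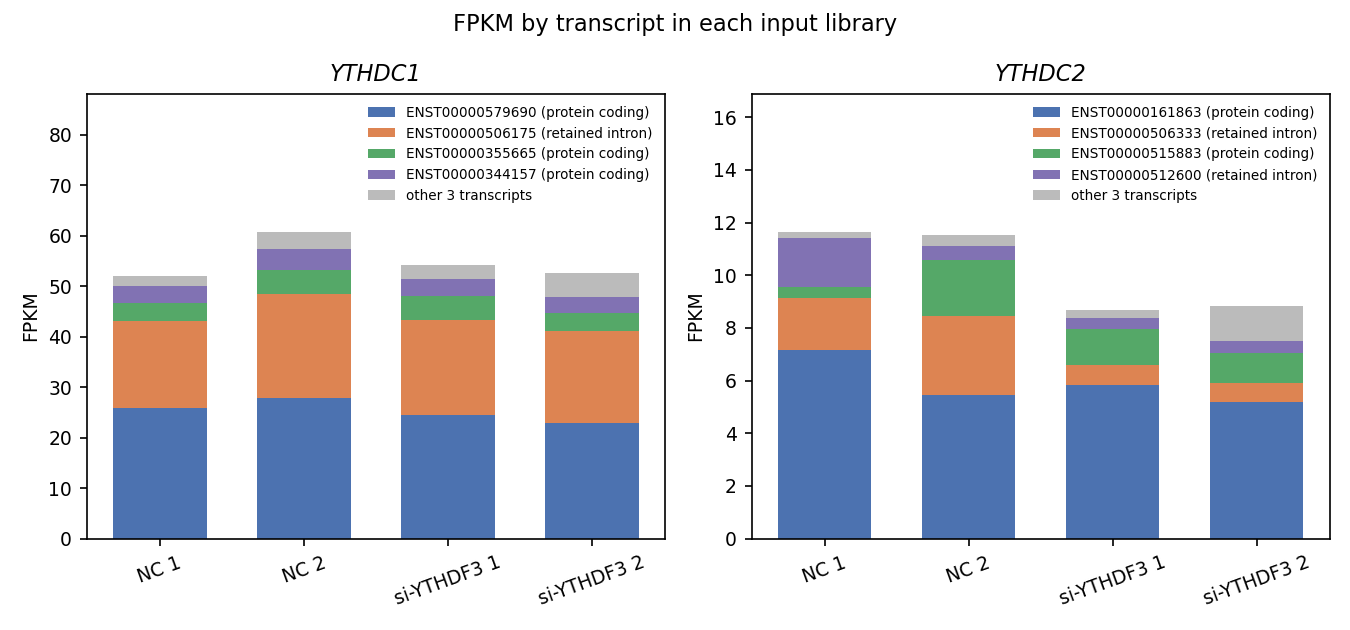
FPKM of YTHDC1 (left) and YTHDC2 (right) in each input library, stacked by transcript; the 4 transcripts with the highest mean are coloured and the rest are grey. The retained-intron transcript ENST00000506175 is of like size in all YTHDC1 bars, while the retained-intron parts of YTHDC2 are 3.87 and 3.68 FPKM in the NC bars and 1.22 and 1.22 FPKM in the others.

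The m6A list used here held 99 differential peaks, all on chromosome 1, where YTHDF2 is the only member of the family. Of those peaks 0 lay in YTHDF2. The list names only peaks that differed between conditions, so this says nothing of whether YTHDF2 RNA is methylated. It holds no peak on the chromosomes of YTHDF1, YTHDF3, YTHDC1 and YTHDC2, so those genes could not be assessed. Whether the list is complete is not known.

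Genes of the same pathway were then compared. Of 29 writers, erasers, other readers and partners of YTH proteins, 27 could be tested, 0 passed the adjusted limma threshold, and at an unadjusted p under 0.05 3 were lower and 2 higher, where 6.53% and 8.29% of all genes tested were, so the list's counts are not read as a result. Their median log2 fold change was -0.085, against 0.012 over all genes tested. Among 11 writers the log2 fold change was -1.45 for CBLL1, an E3 ligase of the writer complex (adjusted p = 0.114), and 0.58 for RBM15B, an RNA-binding subunit (adjusted p = 0.230). Among the erasers, the demethylase FTO had 3.61 and 5.30 FPKM with NC siRNA against 14.8 and 8.36 FPKM with YTHDF3 siRNA (log2 fold change 1.18, adjusted p = 0.225), and ALKBH5 had a log2 fold change of -0.015 (adjusted p = 0.970).

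Readers without a YTH domain and partners of the family stood as follows. The IGF2BP proteins, which stabilise methylated mRNA, included the largest differences of the readers, with log2 fold changes of -0.93 for IGF2BP3 (limma adjusted p = 0.149) and -0.43 for IGF2BP2 (adjusted p = 0.384). Of 7 partners tested, 0 were under 0.05 unadjusted. XRN1, the 5′ to 3′ exonuclease that binds YTHDC2, had control values of 8.48 and 11.3 FPKM and knockdown values of 9.67 and 6.61 FPKM. NXF1, the mRNA export receptor, had 26.1 and 25.7 FPKM with NC siRNA against 24.8 and 37.2 FPKM with YTHDF3 siRNA. CNOT1, the scaffold of the deadenylase that YTHDF2 recruits, had a log2 fold change of -0.038.

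The protein-coding genes whose profile over the 4 libraries came nearest to that of YTHDF3 were PDP2, TOMM6, ADNP, B3GNT5 and CBLL1. Likeness was the root mean square difference between log2(FPKM + 1) profiles, each taken relative to its own mean. It was 0.52 for PDP2, 0.53 for TOMM6, 0.54 for ADNP, 0.55 for B3GNT5 and 0.55 for CBLL1. These genes were picked as the nearest of 7489 with a mean of at least 5 FPKM. PDP2, a mitochondrial pyruvate dehydrogenase phosphatase, shared the high NC replicate 1, with 15.9 and 7.04 FPKM with NC siRNA against 2.97 and 4.99 FPKM with YTHDF3 siRNA. B3GNT5, a glycolipid glycosyltransferase, did so as well, with 12.9 and 5.99 FPKM with NC siRNA against 3.49 and 2.99 FPKM with YTHDF3 siRNA. TOMM6, of the outer mitochondrial membrane translocase, had control libraries close to each other at 9.68 and 10.08 FPKM, as had CBLL1 at 18.8 and 18.7 FPKM. With 4 libraries this likeness is a description only.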

How the data were processed

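For the 4 input libraries the deposited values are FPKM, estimated by the authors for each Ensembl transcript and library. The submitters' processing notes name GRCh38, while aligner and quantifier were not given in the sources used here. Columns of the authors' own comparison (fold changes, p-values and q-values of transcripts, and enrichment changes of peaks) were not used. Of the deposited m6A peak list only positions were read. Groups and replicate numbers came from the sample titles.

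FPKM were summed per gene, and features averaging 1 FPKM or more over the 4 libraries entered limma 3.58.1 as log2(FPKM + 1) (R 4.3.3, mean trend, no covariate, Benjamini-Hochberg over all features, threshold 0.05). FPKM keep no read number, so no counting interval is given. This step was run on simulated data drawn from the fitted model itself. No outlying library was simulated, so that check does not cover the wide gaps between NC libraries. The members and lists were chosen with earlier results of these data known. Named genes were the 5 members, their transcripts at 1 FPKM or more, the 2 pathway genes per sublist with the largest absolute log2 fold change, and the 5 nearest profiles; CNOT1 and the named transcripts averaging below 1 FPKM were added after their values were seen. Alternatives covered the pseudocount, filter, scaling, length weighting, biotype, mean trend, replicate number and single libraries. YTHDF1 and YTHDF2 have pseudogenes that can share reads with them, so their values are uncertain to that extent. Coding sequences and siRNA sequences were not used here. Figures were drawn with matplotlib 3.10.9.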

Additional observations from a re-analysis of the deposited data

How the results depend on the processing

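YTHDF3 was lower after knockdown in all 15 alternatives, from -2.80 to -1.74 (log2) without single libraries. With all 4 libraries kept, it passed the adjusted threshold only with the replicate block (log2 fold change -2.27, limma adjusted p = 0.00031). The labels do not say whether libraries with the same replicate number share a batch or culture. Deviations from the group means correlated at -0.11 over 14457 genes, but with only 2 pairs this cannot decide it. The block moved the count of genes called from 4 to 132, and of pathway genes from 0 to 2 (CBLL1 and FTO). Crossed pairing, chosen after seeing the data, called 0 genes. The gene count was 15 with a filter at 5 FPKM, 0 without a filter, 0 with protein-coding transcripts alone, and 0 to 67 without single libraries. YTHDF2 turned positive in 3 alternatives, at 0.091 with protein-coding transcripts alone, 0.11 without ENST00000476976 and 0.35 without NC replicate 2, in a range of -0.82 to 0.35 without single libraries. YTHDC1 ran from -0.18 to 0.038 without single libraries, turning positive without NC replicate 2. YTHDF1 stayed positive and YTHDC2 negative in 15 of 15 settings, and neither passed. These are not 15 separate checks of direction for any gene. Changing the filter, the mean trend or the replicate block, crossed pairing included, keeps the log2 fold change by construction. Leaving out the transcript with the largest gap between the NC libraries removed the main coding transcript of YTHDF1, ENST00000370339, and of YTHDC2, ENST00000161863. YTHDF1 was then left at 0.252 to 0.458 FPKM. Member transcripts called stayed at 0 in 9 alternatives. Causes of these moves were not tested. With 2 libraries per group, 1 control library can set a gene's value.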

Other observations

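The processed pseudogene YTHDF2P1 on chromosome 14, a copy of YTHDF2 whose reads can be confused with those of its parent and which was chosen after its values were seen, had 0.355 and 0.548 FPKM with NC siRNA against 1.11 and 0.989 FPKM with YTHDF3 siRNA. The groups were apart, but the mean lay below the 1 FPKM filter and the gene was not tested. YTHDF1P1 had at most 0.0407 FPKM in any library. YTHDF3-AS1, a lincRNA on the opposite strand next to the start of YTHDF3, had control values of 0.577 and 0.700 FPKM and knockdown values of 0.727 and 0.566 FPKM, with overlapping groups, while YTHDF3 itself was lower in both.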
